A study of Arabidopsis thaliana with 16 samples.

Results

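The DNA sites of the transcription factor WRKY33 were compared between Arabidopsis thaliana seedlings given flg22 for 2 h and untreated seedlings (0 h). The 4 peak lists of the WRKY33-HA line, 2 at each time, held 4362 of the 16600 peaks in the series. Peaks of the 4 lists that overlapped by at least 1 bp were merged, which gave 3081 sites. A site was called reproducible at a time when it held a peak of both replicates. There were 1237 reproducible sites at 2 h and 3 at 0 h.

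The series measured binding of 3 WRKY factors by ChIP-seq, in which DNA crosslinked to a protein is precipitated with an antibody and sequenced. Its 16 samples comprise 3 lines with an HA-tagged factor and untagged wild type (WT), at both times, with 2 biological replicates each. The WRKY33 samples are of genotype Col-0 WRKY33-HA, either flg22-treated (1 µM, 2 h) or untreated (0 h). Each was called by the authors against Col-0 WT of the same time, treatment and replicate. All seedlings were 12 days old, grown in liquid medium under 16 h of light, and precipitated with an anti-HA antibody. Sequencing depth is known only as a range of 7 to 20 M reads. The series' design text names the HA lines as complementation lines, and the sources used here do not state the transgene's promoter or how many independent lines were used. The flg22 medium replaced the growth medium, and no untreated seedlings were taken at 2 h. The effects of flg22, of time and of the change of medium therefore cannot be told apart. The WT libraries behind the lists also differ between the times.

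WRKY factors are plant transcription factors that recognise W-box motifs in promoters. WRKY33 is known as a substrate of the mitogen-activated protein kinases switched on by flg22, a peptide of bacterial flagellin perceived by the receptor kinase FLS2. Arabidopsis mutants without WRKY33 are susceptible to necrotrophic fungi such as Botrytis, and WRKY33 is known to act on genes of the antifungal compound camalexin.

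WRKY33 was listed at far more places after flg22 than before it. The 2 h lists held 1653 and 2656 peaks in replicates 1 and 2, and the 0 h lists held 9 and 44. The number at 2 h was 184-fold that at 0 h in replicate 1 and 60.4-fold in replicate 2, a mean log2 ratio of 6.72 ± 1.14 (SD, n = 2 pairs). The groups did not overlap, but 2 lists against 2 cannot pass a threshold of 0.05 (exact permutation test, two-sided p = 0.333, the smallest that 6 arrangements can give). The log2 ratio exceeded that of the WRKY18 line by 4.97 (exact permutation p = 0.333, adjusted over both lines 0.667) and that of the WRKY40 line by 0.03 (p = 1, adjusted 1), where the smallest p possible was again 0.333.

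The peaks also differed in size. The authors' peak score, whose scale is not stated, reached 72.3 and 97.1 in the 2 h lists, with medians of 14.1 and 14.4. In the 0 h lists the medians were 12.1 and 11.3. The highest 0 h scores were 47.3 in replicate 1, at the ribosomal RNA gene AT3G41768, and 24.3 in replicate 2, at FUT4. Peaks with a score of at least 30 numbered 75 and 177 at 2 h, against 1 and 0 at 0 h. The median peak was 517 and 476.5 bp wide at 2 h, and 319 and 205.5 bp at 0 h. Peaks held a median of 282 and 222 tags, the reads counted in a peak, at 2 h, and of 188 and 141 at 0 h. The 0 h peaks were thus fewer and narrower and had lower median scores, although the ribosomal RNA peak scored as high as strong 2 h sites.

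**Figure D1:**
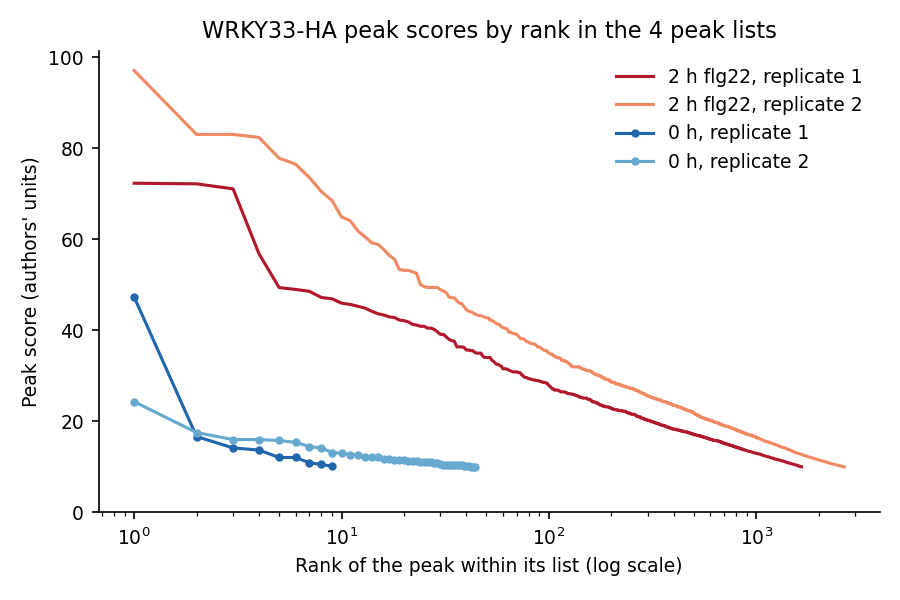
Peak scores of the 4 WRKY33-HA lists (vertical axis, the authors' units) against the rank of the peak in its list (horizontal axis, log scale). Both 2 h curves lie above both 0 h curves at every rank that the lists share, and the 0 h curves end at ranks 9 and 44.

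The best sites after flg22 joined defence genes with genes of growth and of unknown function. Sites were ordered by the mean of their rank percentiles in both 2 h lists, order 1 being the strongest. The first 10 were led by AT1G64405, AT1G14730, MLO6 and PEN3, and also held AT3G48650, NILR1, AT3G49610, AT5G44575, AT2G02210 and AT5G46295. Order 11 was AT5G65166, with scores of 39.7 and 68.5 in replicates 1 and 2. The next named enzyme was ChiC (AT4G19810), a class V chitinase, an enzyme that cuts fungal cell wall chitin, with scores of 34.0 and 76.5 and a site centred 246 bp upstream of its start. CPK9, a calcium-dependent protein kinase, scored 40.2 and 43.2, 279 bp upstream. FUT4, a fucosyltransferase acting on cell wall glycans, scored 35.7 and 46.5, 167 bp upstream. These 3 sites lay in promoters, and their deposited tag ratios over WT were between 9.99 and 21.7 in every 2 h list. That ratio is not the quotient of the deposited tag counts, and its scaling is not stated. In replicate 1, for example, FUT4 had 941 tags where WT had 32, with a ratio of 9.99.

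Genes of hormone and danger signalling came next among the 30 best sites. LOX4, a lipoxygenase of the jasmonate pathway, scored 40.5 and 39.7 at a site 1976 bp upstream. PROPEP3, the precursor of an endogenous danger peptide, scored 34.3 and 48.3 at 320 bp upstream. ERF-1 (AT4G17500), an ethylene response factor, scored 45.3 and 35.6 at 1907 bp upstream. Of these 3, only the PROPEP3 site was inside the first 1000 bp. WRKY41, another member of the factor's own family, scored 34.0 and 42.9 at 350 bp upstream. CYCA2;3, an A-type cyclin of the cell cycle, scored 30.9 and 57.8 at 866 bp upstream. The other sites of orders 11 to 30 lay at AT4G11170, AT1G67910, AT5G25920, AT3G19010, AT5G37490, AT4G23215, SMAP1, AT5G03370, TKI1, AT4G20006 and PFD3.

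Most of the reproducible 2 h sites were centred within 1000 bp upstream of the assigned gene's start. Of the 1237 reproducible sites, 708 (57.2%, 95% exact binomial interval 54.4 to 60.0) were centred 0 to 1000 bp upstream of the start of the gene to which the authors assigned them. A further 171 lay between 1000 and 2000 bp upstream, 239 (19.3%) downstream of the start, and 197 (15.9%) over 2000 bp away on either side. The median site was 348 bp upstream, and 23.0% were centred within 250 bp of the start. By the authors' annotation, 59.0% lay at a promoter, 19.7% between genes, 15.8% at a transcript end, 4.45% in an intron and 0.243% in an exon. Intervals of this kind cover counting error only. The share of the genome at such distances was not computed, so these positions were not set against a background.

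The position of strong and weak sites was compared next. In the strongest tercile of sites, 60.3% (55.4 to 65.0) were centred within 1000 bp upstream, against 54.6% (49.7 to 59.5) in the middle and 56.8% (51.9 to 61.6) in the weakest. Sites downstream of a start made up 15.7% (12.4 to 19.6), 19.2% (15.5 to 23.3) and 23.1% (19.1 to 27.4) of the strongest, middle and weakest terciles. The intervals of the strongest and weakest terciles overlapped in both measures, for sites downstream of a start only from 19.1% to 19.6%. Overlap of intervals is no test, and a difference between terciles was not tested. Sites of only 1 replicate had a like distribution, with 54.7% (52.4 to 57.0) within 1000 bp upstream.

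**Figure D2:**
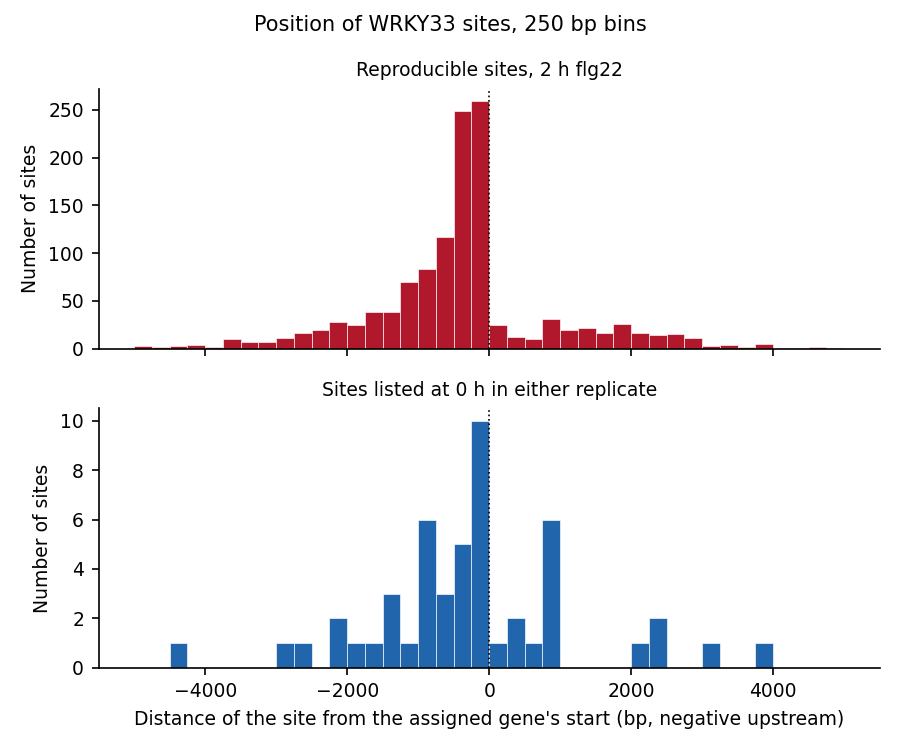
Number of sites (vertical axes) by distance from the assigned gene's start in bp (horizontal axis, 250 bp bins, negative upstream), for the 1237 reproducible 2 h sites (upper panel, 10 of them beyond the axis) and the sites listed at 0 h in either replicate (lower panel). Both panels peak just upstream of the start, and the 2 h sites do so with a median of −348 bp.

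A few of the strongest sites were far from the gene they were assigned to. The site of order 12 lay between AT4G11160 and AT4G11170 and was assigned to AT4G11160 in replicate 1 and to AT4G11170 in replicate 2, 3695 bp upstream of the start of AT4G11170, with scores of 36.4 and 58.9. AT1G67910 had its site 2056 bp downstream of its start, with scores of 49.0 and 38.2. The site assigned to PFD3, a prefoldin subunit that helps fold tubulin and actin, was centred 4513 bp downstream of its start. Its merged width was the largest of all reproducible sites, at 3934 bp, and it scored 40.5 and 34.9. AT5G47225, with 35.7 and 34.4 at 2186 bp downstream, and AT4G37250, with 29.2 and 45.2 at 3613 bp upstream, were the next such sites. The authors assigned 1216 of the 1237 sites (98.3%) to the same gene in both replicates, so for the remaining 21 the gene depends on the replicate.

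The reproducible 2 h sites were assigned to 1192 loci, of which 1174 were in the gene table used, or 3.10% of its 37899 nuclear loci. That share is the background for the gene lists. The lists were written from general knowledge of plant immunity, with earlier results of these data known, so their shares are a description and not independent evidence. Of 227 list genes of immunity, hormones and the WRKY family, 78 (34.4%) had a reproducible site, and 56 had such a site with at least 1 peak centred within 1000 bp of the start, where the background was 2.07%. A gene may have several sites, and values below are of its best unless stated. Of 31 photosynthesis and housekeeping genes, 0 had a reproducible site, although the longer replicate 2 list alone, which covers 6.10% of all loci, held 3 of them (LHCA2, RBCS1A and GAPC1). With so few genes, a count of 0 cannot be told apart from the background of 3.10%.

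**Figure D3:**
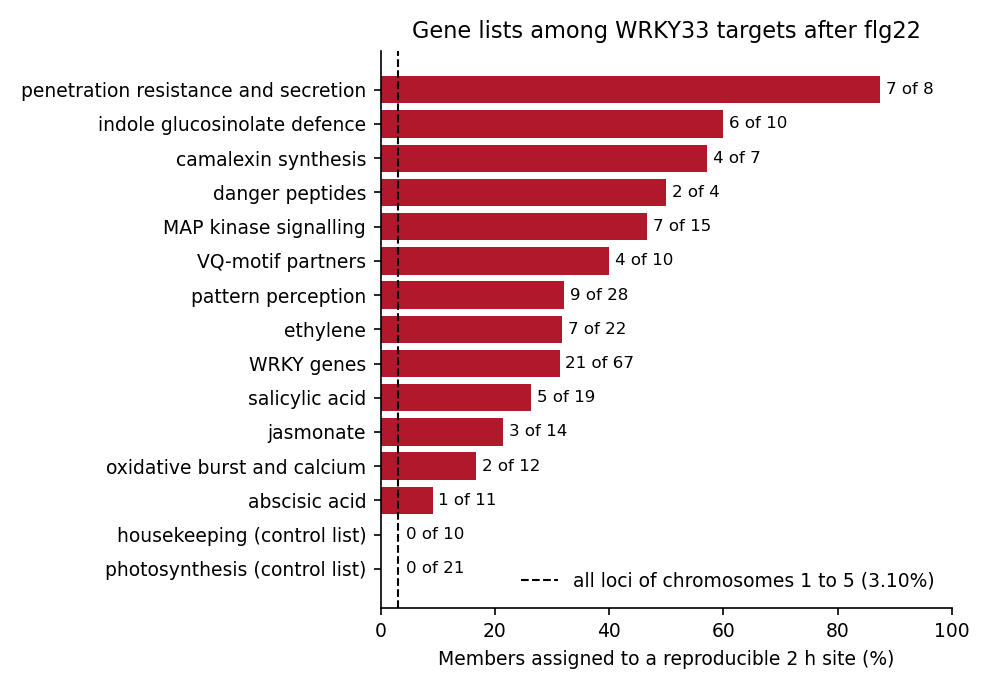
Share of the members of each gene list (horizontal axis, percent) assigned to a reproducible 2 h site, with the count of members beside each bar. The dashed line is the share of all nuclear loci, 3.10%. The bar is longest for penetration resistance and secretion, at 7 of 8 members, and both control lists are at 0.

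The group with the highest share was that of penetration resistance, the cell wall defence that stops fungi at entry. Sites were found at 7 of its 8 members, all centred within 1000 bp of the start. MLO6 and PEN3 were orders 3 and 4. MLO12 scored 38.0 and 32.8, 310 bp upstream, and MLO2 scored 18.4 and 20.2, 66 bp upstream, so all 3 MLO genes of powdery mildew susceptibility were included. The secretory SNARE genes formed the rest: SNAP33 scored 29.4 and 34.8, SYP122 scored 20.2 and 24.3, and PEN1, the syntaxin of the same complex, scored 15.0 and 15.8. Their sites lay 407, 415 and 104 bp upstream. SAR1 (AT2G33120), a vesicle SNARE, was not on the list, and its peak 341 bp upstream had a score of 59.2 in replicate 2 but was not listed in replicate 1. The callose synthase PMR4 was the member without a site.

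Camalexin and indole glucosinolates are defence compounds made from tryptophan. Reproducible sites were found at 4 of 7 camalexin genes. PAD3, the enzyme of the last step, had a pair of sites, with scores of 23.3 and 32.8 at 2347 bp upstream and of 22.5 and 34.3 at 172 bp upstream. CYP79B2, the shared entry enzyme of both pathways, scored 20.2 and 28.7, 2337 bp upstream. CYP71A12 scored 17.98 and 25.6, 1807 bp upstream, and the glutathione transferase GSTF6 scored 15.7 and 23.5, 136 bp upstream. The 3 cytochrome P450 genes thus each had a site over 1000 bp upstream, and PAD3 also had a nearer one. CYP71A13 was in neither 2 h list, and CYP79B3 and GGP1 were each in the list of 1 replicate, where the lists of replicates 1 and 2 covered 3.97% and 6.10% of all loci. A run of 4 reproducible sites on chromosome 2, from 13102906 to 13116065, was assigned to CYP71A12 (AT2G30750) and AT2G30780. These locus numbers flank that of CYP71A13 (AT2G30770), so its absence describes the assigned genes and not the region.

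In the indole glucosinolate group, 6 of 10 members had a site, and 5 of them within 1000 bp of the start. MYB51, the transcriptional regulator of the pathway, scored 23.2 and 31.5, 803 bp upstream. PEN2, the myrosinase that activates the compounds, scored 24.2 and 21.7, 1144 bp upstream. The enzymes CYP83B1, CYP81F2, IGMT1 and IGMT2 had weaker sites, with scores from 11.7 to 16.9 in replicate 1 and from 14.3 to 20.4 in replicate 2. MYB34, IGMT5, UGT74B1 and SUR1 were in neither 2 h list.

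Among 28 genes of pattern perception, 9 had a site, each with 1 centred within 1000 bp of the start. NILR1 (AT1G74360), a receptor kinase of nematode recognition, had scores of 48.6 and 73.6 and was the strongest. CERK1, the chitin receptor kinase, scored 31.6 and 29.4, 98 bp upstream. MIK2, a receptor kinase for secreted plant peptides, scored 26.2 and 25.95, 51 bp upstream. PEPR1, the receptor of the Pep danger peptides, scored 18.1 and 17.5. In the list of danger peptides, which holds its ligand precursors, 2 of 4 had a site, PROPEP3 and PROPEP2, and PROPEP2 scored 20.3 and 30.5. The ubiquitin ligases PUB22, PUB23 and PUB24, which damp pattern signalling, scored 14.7, 17.4 and 21.0 in replicate 1 and 28.4, 25.1 and 26.8 in replicate 2. BIR1, a kinase that restrains cell death, and the ubiquitin ligase PUB12 completed the 9. FLS2, the receptor of flg22 itself, was in neither 2 h list, and its co-receptor BAK1 was listed in replicate 2 only.

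Kinase signalling and the oxidative burst were reached mostly by weak sites. In the MAP kinase list 7 of 15 members had a site, at a median order of 1020 of 1237. MPK5 scored 27.9 and 26.8, 16 bp upstream, and MKP1, a phosphatase of these kinases, scored 22.7 and 20.7, 2616 bp upstream. At MPK4, a kinase activated by flg22, the site was order 1237, the weakest of all, with scores of 10.3 and 10.02. MKK1, MPK11, MAPKKK5 and the phosphatase AP2C1 also had sites. MPK6 was in neither 2 h list and MPK3 was in that of replicate 2 only. With scores of at least 15 in both replicates, which leaves 1.33% of all loci, 2 of the 7 were left. In the list of oxidative burst and calcium genes, 2 of 12 had a site, RBOHF and CML9, neither with both scores at 15 or more. The replicate 2 list alone, which covers 6.10% of all loci, held 4 of the 12. RBOHD, the main NADPH oxidase of the flg22 burst, was in neither 2 h list.

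VQ proteins bind WRKY factors through a short motif. Sites were found at 4 of 10 listed VQ genes, at orders 309 to 378. VQ12 scored 19.1 and 21.5, VQ9 (AT1G78310) scored 19.4 and 20.1, VQ29 scored 17.3 and 23.0, and VQ1 scored 19.6 and 18.4. All 4 were centred within 1000 bp of the start. MKS1 and SIB2 were each listed in replicate 2 only, and SIB1 was in neither list. The replicate 2 list alone, which covers 6.10% of all loci, held 7 of the 10.

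Ethylene genes had sites at 7 of 22 members, and only that of ERF105 was centred within 1000 bp of the start. ACS6 and ACS8, synthases of the ethylene precursor, scored 32.5 and 29.5 at 1779 bp upstream and 26.6 and 34.8 at 3634 bp upstream. EBF2, an F-box protein that removes the regulator EIN3, scored 17.0 and 37.5 at 1722 bp upstream. ERF1B also had a weak site, with scores of 10.3 and 13.9. The ERF5 site, with scores of 19.6 and 36.2, was centred 1513 bp downstream of its start. The salicylic acid list had 5 of 19, led by ALD1, an enzyme of pipecolic acid synthesis, with scores of 17.98 and 40.5, and also including SAG101, CBP60g, PBS3 and EDS5. NPR1 and PR1 of that list were in neither 2 h list. Jasmonate genes had 3 of 14 (LOX4, JAZ6 and AOC3), of which the repressor JAZ6 scored 26.1 and 55.7 at 1217 bp upstream. In the abscisic acid list, 1 of 11 had a site. This was CYP707A3, which encodes an enzyme that breaks the hormone down, with scores of 20.5 and 29.2. These counts depend on replicate 1, whose list is shorter. The replicate 2 list alone covers 6.10% of all loci, against 3.10% for reproducible sites. Its members numbered 13 for ethylene, 8 for salicylic acid, 6 for jasmonate and 5 for abscisic acid.

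WRKY genes themselves were listed at 21 of 67 loci, 15 of them with a peak of such a site centred within 1000 bp of the start. WRKY33 had a site on chromosome 2, from 16107620 to 16108429 in build TAIR10, centred 300 bp upstream of its own start. It scored 31.0 and 27.4 at 2 h, order 94, and the locus was in neither 0 h list. WRKY41, WRKY75 and WRKY53 were the other strong members. WRKY75 scored 25.8 and 32.0 at 1045 bp upstream, by its better-ranked peak, and WRKY53 scored 35.6 and 21.5 at 1632 bp upstream. WRKY18 scored 15.8 and 13.7 at 905 bp upstream, and WRKY40 was listed in replicate 1 only. Of the 21 loci, 10 had scores of at least 15 in both replicates, a limit that leaves 1.33% of all loci.

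Several genes and gene clusters held more than 1 site. There were 70 genes with at least 2 reproducible sites, where a site given different genes in the replicates counted for both. MYB15, a regulator of lignin genes in defence, was the only gene with 3, at 106, 1415 and 4076 bp upstream. Their scores were 15.9, 22.2 and 24.3 in replicate 1 and 12.4, 28.2 and 37.5 in replicate 2, so the most distant was the strongest in both. ERF-1 had sites at 1907 and 2617 bp upstream, and MLO12 at 310 and 2241 bp upstream. Among the strongest of the 70 were also NILR1, AT2G44070, AT1G14340, ZW18, ACS8, AT4G04960 and CCR3. By their better-ranked peaks, the weaker sites of NILR1 (order 137) and ZW18 (order 792) belonged to DPMS2 and ZF14.

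The run with the most sites lay in a cluster of cysteine-rich receptor-like kinase (CRK) genes on chromosome 4, and was singled out after its values were seen. Sites were chained where the gap between neighbours was at most 10 kb. From 12134401 to 12170643, 8 reproducible sites fell within 36243 bp, all 48 to 598 bp upstream of the assigned start. The strongest were AT4G23215, with scores of 41.2 and 36.7, CRK11, with 36.4 and 35.4, and CRK14, with 42.8 and 23.8. The weakest was CRK18, with 10.4 and 12.6. CRK10, CRK13, EP1 (AT4G23170) and EMB1290 (AT4G23250) held the other 4. Elsewhere 752 of the 1237 sites had no neighbour at that distance, and 5 further runs held 5 sites each.

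Only 16 of the 1237 reproducible 2 h sites (1.29%, 0.741 to 2.09) also held a peak at 0 h. All 16 were in the strongest tercile of 2 h sites, 3.87% of its 413 (2.23 to 6.22). In the middle and weakest terciles it was 0 of 412 each, where a limit of 3 counts gives a share of up to 0.728% and the exact interval reaches 0.891%. The lowest listed score was between 10.004 and 10.16 in each of the 4 lists. Median 2 h scores in replicates 1 and 2 were 14.7 and 18.1 in the middle tercile and 11.7 and 12.6 in the weakest. A 0 h signal below those lowest scores would not be listed, so these counts of 0 do not show such sites to be unbound. Among the 30 best sites 7 had a 0 h peak, and among the 100 best 12 had one. Read from the other side, 7 of the 9 peaks of 0 h replicate 1 and 17 of the 44 peaks of 0 h replicate 2 overlapped a 2 h peak. The 0 h lists assigned peaks to 0.129% of all nuclear loci, and among the 227 list genes they held PEN3 and VQ9.

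**Figure D4:**
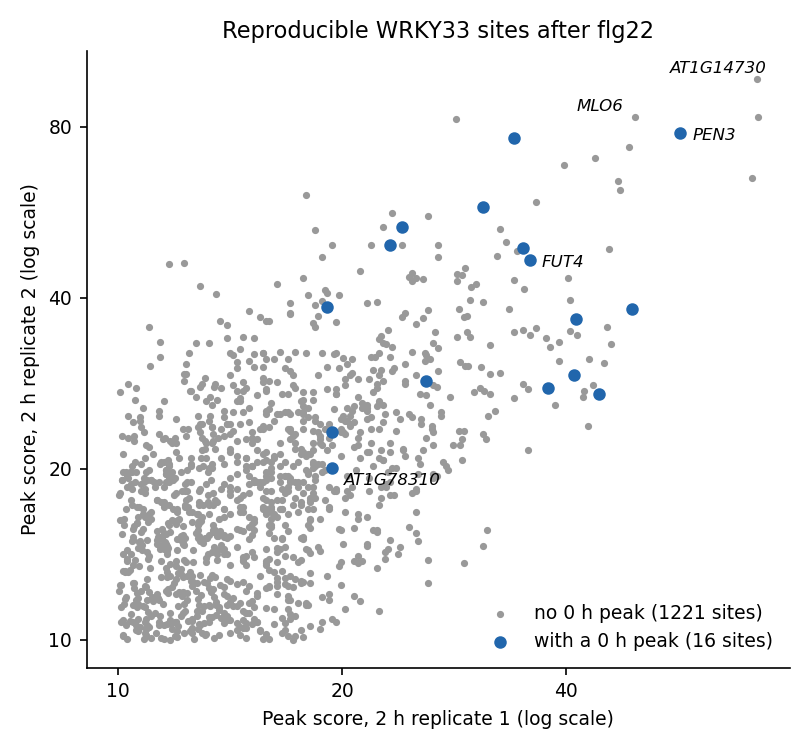
Peak scores of the 1237 reproducible 2 h sites in replicate 1 (horizontal axis, log scale) and replicate 2 (vertical axis, log scale), with the 16 sites that also held a 0 h peak as large blue points and the other 1221 in grey. The blue points lie among the higher scores of both replicates, and the scores of the replicates spread widely around each other.

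PEN3, PUP18 and VQ9 were listed in both replicates at 0 h. PEN3, an ABC transporter that exports defence compounds, had 1300 and 1388 tags at 2 h, where WT had 18 and 14. At 0 h it had 308 and 357 tags, where WT had 11 and 25. The score at 2 h was 4.15-fold that at 0 h in replicate 1 and 4.43-fold in replicate 2, and the peak maximum moved by 20 and 52 bp. PUP18, a purine permease, scored 40.9 and 29.2 at 2 h, against 12.1 and 10.5 at 0 h. The maxima of its 0 h peaks were 11 bp apart.

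VQ9 (AT1G78310), on chromosome 1 from 29465588 to 29466191, was the weakest of the 16 at 2 h, at order 327, with scores of 19.4 and 20.1. At 0 h it scored 12.1 and 11.2. Its 0 h peaks overlapped by 4 bp with maxima 290 bp apart, so it would not count as reproducible if the 0 h lists alone were merged with at least 50% of the shorter peak shared, an alternative chosen after seeing the data. With that overlap in the merge of all 4 lists it was kept, since the wider 2 h peaks join its 0 h peaks. In the WRKY18 lists PEN3 scored 105 and 110 at 2 h and 21.5 and 39.6 at 0 h, and in the WRKY40 lists 136 and 153 at 2 h and was not listed at 0 h. PUP18 scored 71.5 and 63.6 at 0 h in the WRKY18 lists. At 2 h it scored 90.8 in WRKY18 replicate 1 and was not listed in replicate 2. In the WRKY40 lists PUP18 scored 87.5 and 64.3 at 2 h and was not listed at 0 h. VQ9 had no peak in any list of those lines. The 3 lines of a replicate and time share their WT control.

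The remaining 18 sites with peaks at both times had a 0 h peak in 1 replicate. FUT4, with 24.3, had the highest 0 h score in replicate 2, against 46.5 at 2 h in that replicate. AT1G67910 scored 49.0 at 2 h and 10.5 at 0 h in replicate 1, with maxima 2 bp apart. AT3G15518 scored 44.2 at 2 h and 10.9 at 0 h in replicate 1, and its maximum was at the same base. ChiC scored 76.5 at 2 h and 13.0 at 0 h in replicate 2, a ratio of 5.87. AT4G23215 of the CRK cluster scored 41.2 at 2 h and 10.2 at 0 h in replicate 1, and CRK41, elsewhere on chromosome 4, 37.8 at 2 h and 14.2 at 0 h. MYB62, a MYB factor of phosphate starvation, scored 49.5 at 2 h and 12.2 at 0 h in replicate 2, and EXO70H1, an exocyst subunit of secretion, scored 23.2 at 2 h and 10.4 at 0 h. The 0 h peak of EXO70H1 overlapped only the 2 h peak of replicate 2, which was 1896 bp wide. Its maximum lay at 20443405, against 20442871 at 2 h in that replicate. It held 146 tags where WT had 25, with a deposited tag ratio of 2.13.

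Among the others, LSU2, a gene of the sulphur deficiency response, was listed at both times in replicate 2, with 40.3 at 2 h and 11.8 at 0 h, and was in neither replicate 1 list. At CDF1, a repressor of flowering, the scores were close, with 16.6 at 2 h and 15.8 at 0 h in replicate 2. The rest lay at AT5G25920, CYCA2;3, AT5G44585, AT4G11000, AT4G22190, AT3G49810, AT5G46950 and AT5G12340.

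Where a replicate listed a site at both times, the score was higher at 2 h in 7 of 7 sites in replicate 1 and in 16 of 16 in replicate 2. The median ratio of 2 h to 0 h was 4.05 (range 1.603 to 4.65) in replicate 1 and 3.08 (1.05 to 5.87) in replicate 2. The deposited tag ratios over WT were also higher at 2 h at all of them, by a median factor of 2.48 and 2.96. Whether the scores were scaled for depth is not stated, so these ratios compare lists and not amounts of bound protein. Only sites listed at both times enter this comparison. The 0 h peaks without a 2 h peak, 2 in replicate 1 and 27 in replicate 2, are left out. At sites with a 2 h peak the median 0 h scores were 12.1 and 11.6, near the lowest listed scores. A fall in score would mostly remove a site from the 2 h list, so the direction was largely set by this choice.

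**Figure D5:**
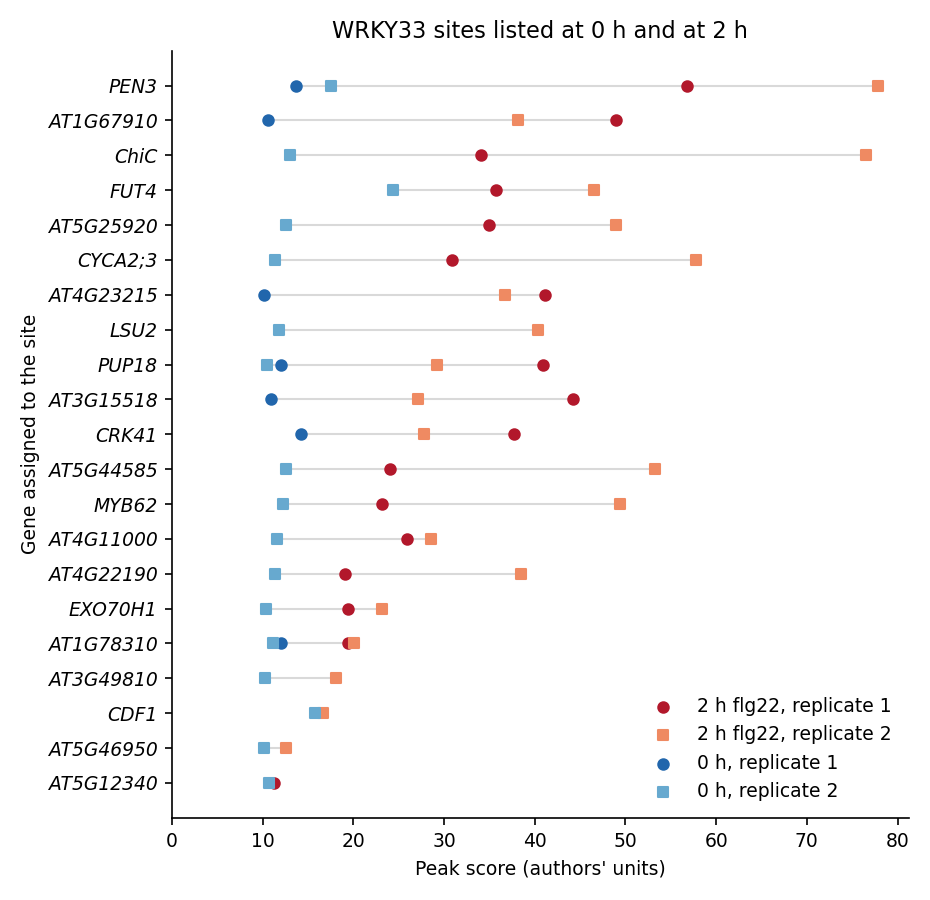
Peak scores (horizontal axis, the authors' units) of the 21 sites listed at both times, by assigned gene (vertical axis, in order of 2 h strength). Circles are replicate 1 and squares replicate 2, red and orange for 2 h flg22 and blue for 0 h. Within a replicate every 2 h point lies to the right of the 0 h point, with a gap from 1.05-fold at CDF1 to 5.87-fold at ChiC.

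A further 29 sites were listed at 0 h but not at 2 h. Of them, 27 came from replicate 2 alone and 2 from replicate 1 alone, so 0 were found in both. The 2 of replicate 1 were AT3G41768, the ribosomal RNA gene, and a mitochondrial gene. Their deposited tag ratios over WT were 2.67 and 1.35. The 7 peaks of the same list that overlapped a 2 h peak had higher ratios, of 4.74 to 5.98. By counts, the 2 peaks held 837 and 383 tags where WT had 53 and 48. The 7 peaks held 151 to 308 tags where WT had 0 to 11. The 27 of replicate 2 had a median score of 11.1 and a median tag ratio of 4.26, against 11.6 and 3.98 for the 17 that overlapped a 2 h peak. The lowest tag ratio was 0.638, at AT4G09987.

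The genes assigned to these 29 sites include STOP1, a regulator of aluminium tolerance, with a score of 14.5, AtMYB103, a regulator of secondary walls, with 16.0, and ATML1, a determinant of the epidermis, with 10.2. The flowering genes FLC, with 10.1, and VEL1, with 10.4, had peaks 3094 and 3979 bp downstream of their starts. KTI1, a Kunitz trypsin inhibitor, had 10.8. AHL19 and COBL8 completed the named ones, and the others bear locus names only. Of the 29, 34.5% (17.9 to 54.3) were centred within 1000 bp upstream, against 66.7% (43.0 to 85.4) of the 21 with a 2 h peak. These intervals overlap, and the difference was not tested.

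The 2 h replicates shared most of the peaks of the shorter list, while the ranks of shared sites differed. Of the replicate 1 peaks 75.5% lay in reproducible sites, and 90.2%, 76.8% and 59.5% in the best, middle and lowest tercile by score. Of the peaks in the longer replicate 2 list 46.9% did. The 10 best peaks of each list had 6 sites in common and the 100 best 42. Over the 1237 sites, which share their libraries and so are no replicates, Spearman's correlation of the scores was 0.50 and that of the tags 0.73. The peak maxima were a median of 28 bp apart, and within 50 bp at 62.7% of sites. At 113 sites (9.14%) they were over 200 bp apart.

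Some strong sites rested on 1 replicate. In replicate 2 these were SAR1 (rank 14), AT1G61360 (19), CMPG1 (57), LSU2 (63) and the UV-B receptor gene UVR8 (131). CMPG1, a ubiquitin ligase of elicitor responses, scored 41.3 there. In replicate 1 they were AT3G22060 (rank 21), EDA39 (24), AT4G30350 (36), RHA1A (39) and AT1G26410 (55). The authors numbered the peaks of each list, and 101 and 276 numbers are absent at 2 h and 2 and 13 at 0 h. Number 1 is absent from both 0 h lists. A gene missing from a list was therefore not shown to be unbound.

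The sites whose rank percentile differed most between replicates all had the better percentile in replicate 2. A percentile is a rank over the length of its list, and the replicate 2 list is longer. Over the 1237 reproducible sites the difference, replicate 2 minus replicate 1, had a median of −6.53 and ran from −89.95 to 70.2. They lay at AT2G47550, AT3G48640, RFO1, AT3G55677, ML5, sks8, PUB17, RBOHF, AlaAT1 and GATA15. PUB17, a ubiquitin ligase of cell death, ranked 95 in replicate 2 and 1405 in replicate 1. RFO1, a receptor kinase of Fusarium resistance, ranked 227 in replicate 2 and 1515 in replicate 1.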

How the data were processed

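The submitters' processing notes name Bowtie 0.12.7, HOMER, cutadapt 1.2.1, FastQC 0.11.2 and build TAIR10. The sources used here do not give the settings of the peak calling. Each library had its own deposited peak list. Per the labels, 7 to 20 M reads of 100 bp were obtained per sample from 2 g of seedlings after 2 rounds of linear amplification. Tag counts per peak were deposited for the HA and the WT library. The deposited peak score is a signal on an unstated scale. The fold enrichments of scores and tags are ratios over WT, per the file headers. The deposited tag ratio differs from the quotient of the deposited tag counts, and its scaling is not stated. A −log10 q-value per peak was deposited too and was not used. Distances to gene starts were assigned by the authors and measured from peak midpoints; a site's distance is that of its better-ranked peak.

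Scripts ran in Python 3.11.15 (pandas 2.3.3, numpy 2.4.6, scipy 1.17.1, figures by matplotlib 3.10.9). Overlapping peaks were chained at 1 bp, and the merging was tested on simulated data. Numbers of peaks were compared by exact permutation tests, and shares have Clopper-Pearson intervals at 95%. Gene symbols and the 37899 background loci came from RefSeq's genes of TAIR10.1, whose coordinates were not used. The members and gene lists were chosen with earlier results of these data known. The rule for naming drew on the genes of the 30 best reproducible 2 h sites, of all nuclear 0 h peaks, list members with such sites, the 10 genes with most sites, the 10 sites that differ most between replicates, the 5 best sites of each replicate alone, and the 5 best sites over 2000 bp from a start. List members without a site, sites outside the lists' members that share a role, and the CRK cluster were named after their values were seen. The labels do not say that equal replicate numbers share a day or batch. The alternatives tried were other overlaps, score limits, windows and left-out replicates.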

Additional observations from a re-analysis of the deposited data

How the results depend on the processing

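Leaving out a replicate gave a log2 ratio of peak numbers from 5.92 to 7.52, and the replicate block gave 6.72 with an exact permutation p of 0.5, the smallest that 2 pairs can give. With scores of at least 15, reproducible sites numbered 519 at 2 h and 0 at 0 h. Of the 2 h sites so limited, 3.08% held a 0 h peak. Of the 227 list genes, 48 had such a 2 h site, against 1.33% of all loci. The replicate 2 list alone covers 6.10% of all loci, against 3.10% for reproducible sites. Its members numbered 13 for ethylene, 8 for salicylic acid, 7 for VQ, 6 for jasmonate and 5 for abscisic acid. For oxidative burst and calcium they numbered 4, for photosynthesis 2 and for housekeeping 1. The share with a 0 h peak was 0.688% over all 2 h sites and from 0.566% to 0.970% without either 0 h replicate. Within 500 and 2000 bp upstream lay 41.1% and 71.1% of the reproducible sites. An overlap of at least 50% of the shorter peak gave 1235 sites at 2 h and 3 at 0 h as before, and between the 0 h lists alone, an alternative chosen after seeing the data, it gave 2 without VQ9. Without mitochondrial and ribosomal RNA peaks, also chosen after seeing the data, the log2 ratio was 6.90. The planned search for W-box letters in promoters was not run, since no sequence was used here. Depth is known only as a range, so a list of 9 peaks limits what 0 h can show.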
